A study of Mus musculus with 4 samples.

Results

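Cytochrome P450 genes were examined in the liver cistromes of the glucocorticoid receptor (GR) and of E2A. A cistrome is the set of genomic regions where chromatin immunoprecipitation with sequencing (ChIP-seq) detects a factor. All peaks whose nearest gene had a symbol made of Cyp and a number were taken. They belonged to 46 of the 6521 genes named in the 4 peak lists, and they numbered 200 peaks. Of the 46 genes, 44 were protein-coding, and the other 2 were Cyp2d13 and Cyp2d37-ps, which are annotated as pseudogenes.

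The livers came from wild-type male C57BL/6 mice (E47+/+) aged 10 to 16 weeks that were fed chow and killed at ZT10, shortly before the dark phase. Each ChIP had 2 biological replicates, with rabbit antibodies to GR or to the E2A proteins, which are the products of Tcf3 and include E47. No input, untreated control or mutant peak list was analysed here, so each comparison is between the ChIPs, between replicates, or between P450 genes and all genes. The labels call the mice untreated, whereas the study's supplementary description names dexamethasone for these lists. The study's text on the GR ChIP names no drug, as the labels do, and the conflict with the supplement could not be settled. It places the E2A ChIP in the same livers as the GR ChIP, but no source used here says which GR and E2A lists came from 1 liver. The description fields of both E2A samples name a GR ChIP, and 1 of them an E47-/- genotype. Their titles, antibody and genotype fields say E2A in wild type, and those were followed.

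P450 enzymes are haem-containing monooxygenases, most of them in the endoplasmic reticulum, which take electrons from P450 oxidoreductase. In hepatocytes, families 1 to 3 oxidise drugs, toxicants and steroids, family 4 hydroxylates fatty acids, and families 7, 8, 27 and 39 turn cholesterol into bile acids. GR is the nuclear receptor for glucocorticoids and binds DNA as a dimer at glucocorticoid response elements (GREs). E2A proteins are basic helix-loop-helix factors that bind E-boxes, the sequence CANNTG.

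The lists held 4291 and 7334 GR peaks and 4028 and 1892 E2A peaks in replicates 1 and 2. P450 genes took 49, 72, 59 and 20 of them. That was 1.14% of GR peaks in replicate 1 and 0.982% in replicate 2, and 1.47% and 1.06% of E2A peaks. The lists give positions without heights, read counts or significance values, so a peak is a yes or no call and a missing peak does not show that a factor was absent. Whole liver was used, and a call does not say in what share of the cells the factor was bound. Liver identity was checked from markers. All 7 hepatocyte genes examined, among them Alb and Tat, had a GR peak in both replicates. An E2A peak was at 6 of the 7, the exception being Hnf4a. None of the 6 genes typical of heart, brain, B cells, eye, pancreatic islets or epidermis had a peak in any list. Only 23.4% of all protein-coding genes had a GR peak and 13.8% an E2A peak, so the lack of peaks at 6 genes is a weak check.

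GR peaks lay nearest to 42 of the 46 genes and E2A peaks to 32. Both were found at 28 genes, GR alone at 14 genes and E2A alone at 4, which were Cyp2b9, Cyp2c23, Cyp4a10 and Cyp4a31. A gene was among the 46 only if it had a peak, so these counts do not measure how often P450 genes were called. No matching split over all genes is given here. Of the 100 protein-coding P450 genes annotated in GENCODE M21, 40 were nearest to a GR region (40%, 95% Wilson interval 30.9 to 49.8), where a region is the union of overlapping peaks from the replicates of a ChIP. Over all 21924 protein-coding genes the share was 23.4%. E2A regions were nearest to 31 of the 100 (31%, interval 22.8 to 40.6) against 13.8% of all protein-coding genes. A shared region, meaning a GR or E2A region that shared at least 1 bp with a region of the other ChIP, lay nearest to 20 of the 100. That was 20% (interval 13.3 to 28.9) against 8.78%. A GR region called in both replicates lay nearest to 19 of the 100 (19%, interval 12.5 to 27.8) against 8.33%. These intervals cover counting error only, and genes of a cluster share sequence, so no test was run.

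**Figure D1:**
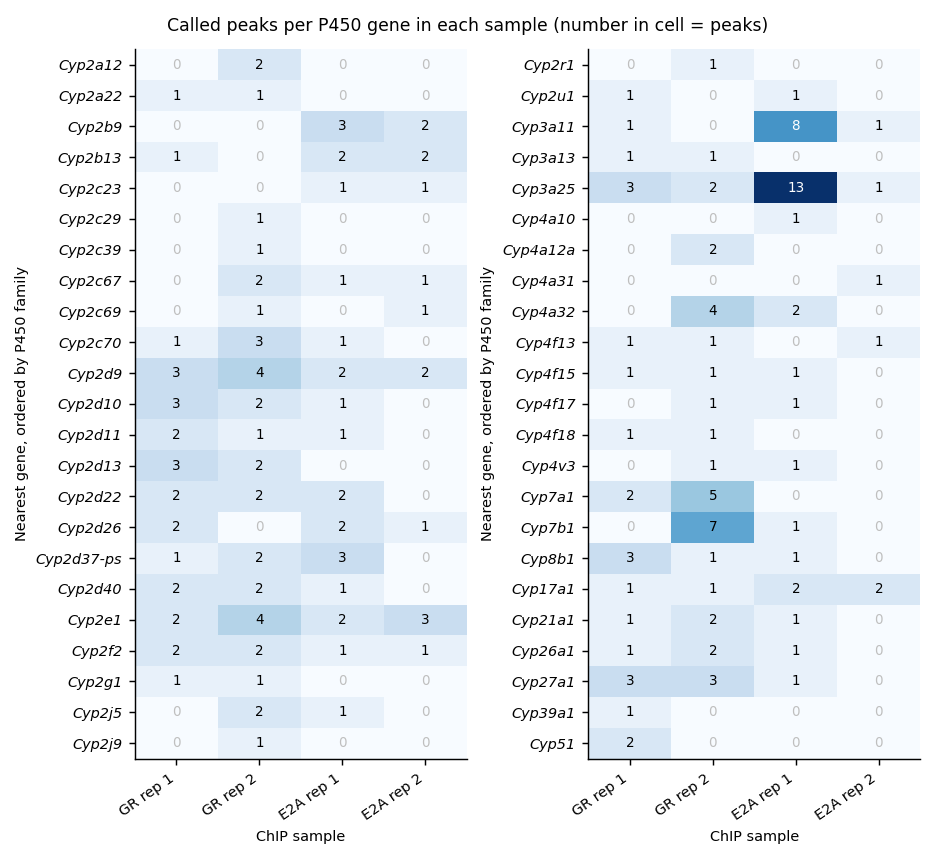
The number of called peaks whose nearest gene is each of the 46 P450 genes (rows, by family) in each ChIP sample (columns). The cells of Cyp3a25 and Cyp3a11 in E2A replicate 1, with 13 and 8 peaks, stand above every other cell, and 5 genes have a peak in every column.

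Replicates overlapped in part. When overlapping peaks of all 4 samples were joined, P450 genes had 127 sites. Of these, 81 were called in 1 sample (63.8%, against 58.7% of all 10755 sites), 29 in 2 samples, 12 in 3 and 5 in all 4 (3.94% against 4.44%). The 5 sites found in every sample belonged to Cyp2e1, Cyp2d9, Cyp2f2, Cyp17a1 and Cyp3a25. GR replicate 2, with the longest list, supplied 42 of the 61 GR regions seen in 1 replicate (68.9%, against 75.7% over all genes). E2A replicate 1 supplied 47 of the 54 such E2A regions (87.0%, against 79.2%). By list, 35.6% of the P450 peaks of E2A replicate 1 met a peak of GR replicate 1, against 36.8% of all its peaks. With GR replicate 2 the shares were 35.6% and 50%. For E2A replicate 2 they were 35% against 40.5% with GR replicate 1, and 45% against 57.9% with GR replicate 2. Because the lists differ in length, genes are described below mainly by regions called in both replicates or shared by both ChIPs.

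The sequences at these sites are printed first, from the GRCm38 (mm10) plus strand unless said otherwise, and 5′ to 3′. Shown first are 150-bp central stretches of 4 sites called in at least 3 samples outside promoters, at genes of steroid, bile acid, drug and retinoic acid metabolism, with E-boxes in capitals: the site in intron 6 of Cyp17a1 at chr19:46668330-46668479, called in every sample, the site in intron 1 of Cyp27a1 at chr1:74721572-74721721, the site upstream of Cyp3a25 at chr5:146021296-146021445 and the site downstream of Cyp26a1 at chr19:37702541-37702690.
Cyp17a1 intron: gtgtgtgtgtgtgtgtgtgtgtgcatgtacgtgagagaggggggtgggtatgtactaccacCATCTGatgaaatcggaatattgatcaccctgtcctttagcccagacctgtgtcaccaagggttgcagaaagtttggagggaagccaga
Cyp27a1 intron: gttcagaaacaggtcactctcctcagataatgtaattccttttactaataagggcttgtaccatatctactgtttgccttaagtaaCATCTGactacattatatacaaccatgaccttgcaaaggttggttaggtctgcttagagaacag
Cyp3a25 upstream: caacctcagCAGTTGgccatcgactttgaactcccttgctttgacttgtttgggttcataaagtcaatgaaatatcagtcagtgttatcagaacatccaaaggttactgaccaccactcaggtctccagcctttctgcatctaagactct
Cyp26a1 downstream: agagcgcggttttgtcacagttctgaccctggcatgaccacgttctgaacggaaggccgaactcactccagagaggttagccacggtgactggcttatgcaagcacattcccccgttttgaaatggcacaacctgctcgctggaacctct
The stretches of Cyp17a1, Cyp27a1 and Cyp3a25 each held 1 E-box and that of Cyp26a1 held none.

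The GRE was searched as AGAACA, 3 bases of any kind and TGTTCT, on both strands, over whole GR regions of up to 2000 bp. None of the 86 such regions held all 12 fixed letters, 3 had a best match with 1 mismatch, 6 had a best match with 2, and 77 had none closer than that. The matches with 1 mismatch in regions called in both GR replicates are shown in capitals with 13 bp on each side. They lay in intron 1 of Cyp27a1 at chr1:74724313-74724327 and 42056 bp upstream of Cyp2a22 at chr7:26981659-26981673, the latter 1 bp from the centre of its region.
Cyp27a1 GRE: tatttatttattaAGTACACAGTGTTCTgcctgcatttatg
Cyp2a22 GRE: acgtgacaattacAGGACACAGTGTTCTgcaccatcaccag
Both carried an intact TGTTCT arm, and neither region met an E2A peak.

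Several regions lay at duplicated sequence. The study kept read pairs that mapped uniquely, so near-identical copies are places where calls depend on the few bases or mates that differ. The 3 most alike pairs over at least 300 bp between different genes are shown as 120-bp stretches with differing bases in capitals. The distal pair is at chr7:26019897-26020016 near Cyp2b13 and chr7:26139599-26139718 near Cyp2b9. The proximal pair is at chr7:26055019-26055138 and chr7:26168929-26169048 upstream of the same genes. The Cyp2d pair is at chr15:82396183-82396302 near Cyp2d11 and chr15:82450113-82450232 near Cyp2d9, the latter from the minus strand. Upstream there refers to the deposited start of Cyp2d9, since the GENCODE M21 model of this gene covers the stretch.
Cyp2b13 distal: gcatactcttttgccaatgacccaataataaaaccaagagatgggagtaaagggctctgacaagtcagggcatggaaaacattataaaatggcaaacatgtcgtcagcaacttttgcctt
Cyp2b9 distal: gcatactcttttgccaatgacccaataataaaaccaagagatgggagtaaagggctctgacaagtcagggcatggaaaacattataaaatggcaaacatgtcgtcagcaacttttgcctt
Cyp2b13 proximal: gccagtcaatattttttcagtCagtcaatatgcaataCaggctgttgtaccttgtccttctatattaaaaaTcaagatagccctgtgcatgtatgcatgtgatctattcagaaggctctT
Cyp2b9 proximal: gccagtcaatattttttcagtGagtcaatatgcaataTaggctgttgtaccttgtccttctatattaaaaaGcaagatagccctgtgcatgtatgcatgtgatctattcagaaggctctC
Cyp2d11 upstream: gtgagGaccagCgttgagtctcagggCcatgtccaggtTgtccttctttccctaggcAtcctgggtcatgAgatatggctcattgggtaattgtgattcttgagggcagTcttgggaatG
Cyp2d9 upstream: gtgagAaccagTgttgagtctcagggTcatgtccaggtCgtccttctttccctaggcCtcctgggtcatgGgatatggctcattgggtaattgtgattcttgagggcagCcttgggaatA
The distal Cyp2b regions were identical over 351 of 351 aligned bp, the proximal ones over 539 of 549 bp (98.2%) and the Cyp2d regions over 372 of 385 bp (96.6%).

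The shared fraction of P450 regions was compared with that of the whole cistromes. Of 91 GR regions at P450 genes, 26 met an E2A region (28.6%, interval 20.3 to 38.6), beside 30.7% of all 8795 GR regions. Of 66 E2A regions, 30 met a GR region (45.5%, interval 34.0 to 57.4), beside 58.1% of all 4783. When the 22 E2A regions of Cyp3a11 and Cyp3a25 were left out, 26 of 44 met GR (59.1%), and that alternative was added after the values had been seen. GR regions at P450 genes were called in both replicates in 30 of 91 cases (33.0%), beside 31.1% overall. E2A regions were called in both in 12 of 66 cases (18.2%, interval 10.7 to 29.2), beside 23.4% overall.

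The share of promoter regions was lower at P450 genes than in the cistromes as a whole. A promoter peak was part of 28 of 91 GR regions (30.8%, interval 22.2 to 40.9), beside 50.4% of all GR regions. For E2A it was 10 of 66 (15.2%, interval 8.44 to 25.7), beside 39.1%. The GR gap lay mainly in replicate 2, where 36.1% of P450 peaks and 57.4% of all peaks were promoter peaks. In GR replicate 1 these shares were 30.6% and 34.3%. They were 16.95% and 41.2% in E2A replicate 1, and 10% and 37.05% in E2A replicate 2. Of the 66 E2A regions, 22 were at Cyp3a11 and Cyp3a25. The median distance to the annotated start site was 4386 bp for P450 GR regions and 643 bp for all GR regions, and 8788 bp and 3753 bp for E2A regions. Wide regions were also frequent. In all, 13 of 91 GR regions exceeded 1000 bp (14.3%, interval 8.54 to 22.9), beside 6.32% of all, and 6 of 66 E2A regions did (9.09%, interval 4.23 to 18.5), beside 3.32%. The 1000-bp width was chosen after the values had been seen.

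**Figure D2:**
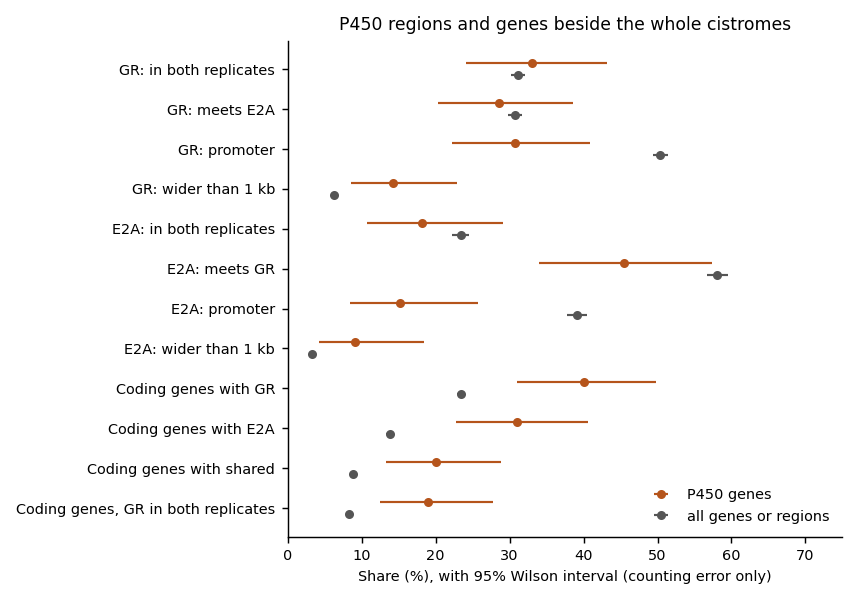
Shares of P450 regions or genes (orange) and of all regions or genes (grey), in percent, with 95% Wilson intervals. For promoter regions the P450 interval lies below the value of the whole cistrome in both ChIPs, and for the 4 shares of protein-coding genes it lies above it.

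**Figure D3:**
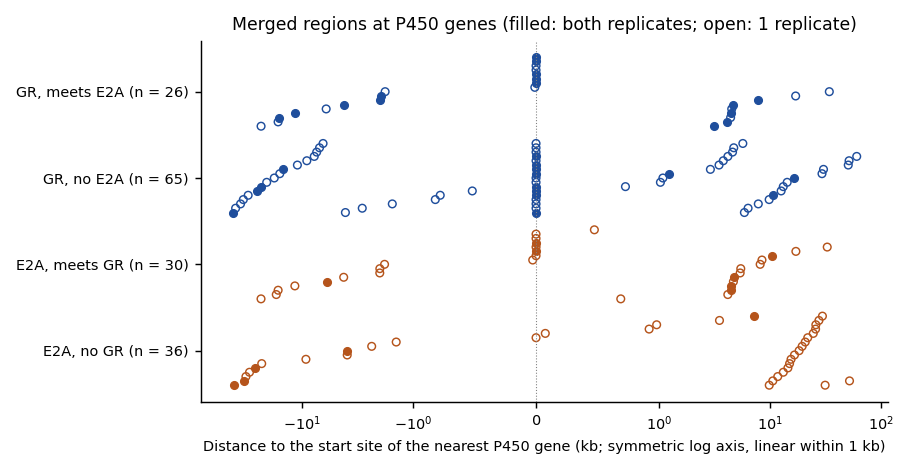
Each point is a merged P450 region at its distance to the start site of the nearest P450 gene, in kb on a symmetric log axis, by ChIP and by whether it meets the other ChIP, and the offset within a row only separates points. Of 91 GR regions 24 cover the start site (26.4%, against 40.5% of all GR regions). Of 66 E2A regions 7 do (10.6%, against 27.3% of all E2A regions). The E2A regions without GR include a run of points 10 to 30 kb downstream, most of them at Cyp3a11 and Cyp3a25.

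The Cyp2d cluster on chromosome 15, whose enzymes oxidise many basic drugs, held the most peaks of the 11 clusters. Of its 19 annotated genes, 8 had a peak. All 8 of these members had GR regions, 7 had E2A regions and 7 had a shared region. The 8 were chosen for having a peak, so these counts do not measure how often genes of the cluster were called. GR was called in both replicates of the same region at 7 of the 8, the exception being Cyp2d26. The cluster held 18 and 15 GR peaks and 12 and 3 E2A peaks in replicates 1 and 2. Of its 8 protein-coding genes, 6 had a GR region and 6 an E2A region (75% each, interval 40.9 to 92.85). Over all protein-coding genes these shares were 23.4% and 13.8%. A shared region was at 8.78% of all protein-coding genes, and a GR region called in both replicates at 8.33%. Cyp2d12 and Cyp2d34 had no peak.

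At Cyp2d9 a broad site reached from the 3′ UTR beyond the gene, at chr15:82456405-82459911, and was called in all samples. Its GR peaks measured 2732 bp in replicate 1 and 3507 bp in replicate 2, and its E2A peak 2569 bp in replicate 1, while replicate 2 had peaks of 1357 and 432 bp. The GR peak of replicate 1 ranked 8 by width among 4291. A further Cyp2d9 site, 1933 bp upstream of the start site in the deposited annotation, was called in GR of both replicates and E2A of replicate 1. GENCODE M21 starts Cyp2d9 farther upstream, at chr15:82433437, so this site lies inside that gene model. The Cyp2d11 site 1970 bp upstream had the same calls, and these are the near-identical Cyp2d stretches printed above. Whether reads of either copy contributed to the other's peak was not tested.

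GR was called in both replicates at the promoters of Cyp2d22, Cyp2d10, Cyp2d9, Cyp2d13 and Cyp2d40. E2A replicate 1 met GR at Cyp2d22 and Cyp2d40 in these promoters, and E2A was called at none of the other 3. The Cyp2d10, Cyp2d9, Cyp2d13 and Cyp2d40 promoter regions aligned to each other with 79.3% to 86.4% identity. The region 16195 bp upstream of Cyp2d37-ps, called in GR of both replicates and E2A replicate 1, aligned to these 4 with 76.2% to 80.4% identity. In GENCODE M21 it covers the start of the pseudogene Cyp2d38-ps. Cyp2d26 was the exception in the cluster: its promoter had peaks in GR replicate 1 and both E2A replicates, and GR replicate 2 had no peak at the gene.

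The Cyp3a cluster on chromosome 5, which holds major drug and steroid hydroxylases, differed between the E2A replicates. E2A replicate 1 had 13 peaks at Cyp3a25, the highest number at any of the 2987 genes in that list, and 8 at Cyp3a11, where E2A replicate 2 had 1 at each gene. The peaks of replicate 1 covered 21.1% of the 32425-bp gene body of Cyp3a25 and 9.01% of the 25539 bp of Cyp3a11. Replicate 2 covered 0.620% and 0%. Of the 22 E2A regions at both genes, 20 were called in replicate 1 only and 4 met a GR region. The replicate 1 share was 90.9% (interval 72.2 to 97.5), beside 61.4% (27 of 44) at the other P450 genes and 60.7% of all E2A regions. Without peak heights, the size of this difference between replicates could not be measured, and its cause was not tested.

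GR was called in both replicates at 2 regions of Cyp3a25. The promoter was called in every sample, with GR peaks of 360 and 1957 bp and E2A peaks of 271 and 325 bp. A site 11536 bp upstream was called in both GR replicates and E2A replicate 1, with peaks of 376, 307 and 268 bp. GR was also called in replicate 1 downstream of the gene, within the widest E2A peak of the gene (2427 bp). At Cyp3a11 the only GR peak lay 20696 bp upstream, in replicate 1, and met no E2A peak. Cyp3a13, which lies apart at chr5:137892932-137921619 but was counted with this cluster, had a GR promoter region in both replicates and no E2A peak. A further 6 protein-coding Cyp3a genes had no peak. With Cyp3a13 counted, GR was called at 3 of 9 protein-coding genes (33.3%, interval 12.1 to 64.6) and E2A at 2 (22.2%, interval 6.32 to 54.7). The shares of all protein-coding genes were 23.4% and 13.8%.

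Cyp2e1, the ethanol-inducible P450, had the widest P450 peak. In GR replicate 2 it spanned 12764 bp and covered 100% of the gene, ranking 4 by width among 7334 peaks. In GR replicate 1 the promoter peak measured 1024 bp and covered 6.12% of the gene. E2A replicate 1 had a 358-bp peak at the promoter and a 322-bp peak in the 3′ UTR, and E2A replicate 2 had peaks of 373, 855 and 2124 bp in the gene body and its 3′ end. The E2A replicates shared only the 3′ end. A separate GR region 14789 bp upstream was called in both replicates and met no E2A peak.

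**Figure D4:**
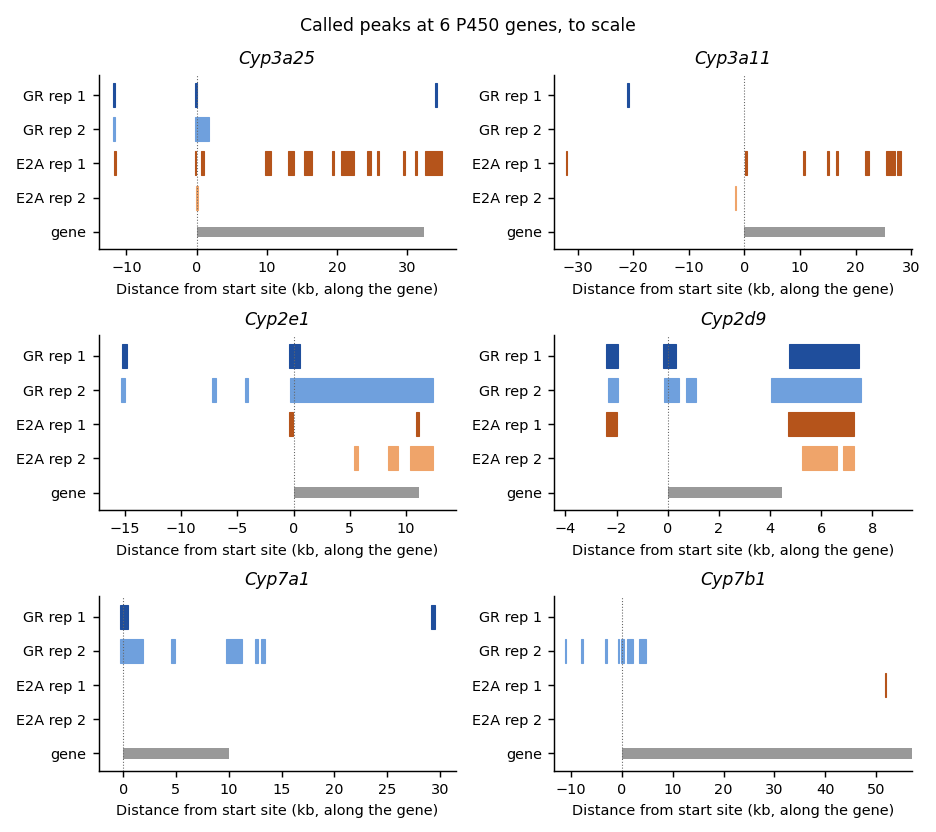
Called peaks of the 4 samples (rows) at 6 P450 genes as bars drawn to scale against the distance from the annotated start site, in kb along the gene, with the gene in grey (cut at the axis for Cyp7b1). E2A replicate 1 runs through Cyp3a25 and Cyp3a11 where replicate 2 has 1 peak each, the GR replicate 2 peak spans Cyp2e1, and Cyp7b1 has GR peaks in replicate 2 only.

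In the cluster on chromosome 7 with the Cyp2a, Cyp2b, Cyp2f and Cyp2g genes, GR was called at 5 of 13 protein-coding genes. That was 38.5% (interval 17.7 to 64.5), against 23.4% of all protein-coding genes. E2A was called at 3 (23.1%, interval 8.18 to 50.3, against 13.8%), with a shared region at 2. E2A was called in both replicates at 2 regions upstream of each of Cyp2b13 and Cyp2b9, whose subfamily oxidises drugs and steroids. They lay 41154 and 5944 bp upstream of Cyp2b13 and 33460 and 3891 bp upstream of Cyp2b9. In GENCODE M21 the distal regions lie inside the pseudogenes Cyp2b27-ps and Cyp2b26-ps, which the deposited annotation did not name as nearest. GR was called there in 1 case, in replicate 1 at the proximal region of Cyp2b13. The copy at Cyp2b9, identical in 539 of 549 aligned bp, had no GR peak in either replicate. Because the distal copies are identical over their aligned length, the deposited lists alone cannot tell apart binding at both from binding at 1 of them.

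GR alone, in both replicates, was called 25392 bp upstream of Cyp2g1 and 42056 bp upstream of Cyp2a22, the latter at the GRE shown above. Cyp2a12 had 2 GR peaks in replicate 2 only. Cyp2f2, which bioactivates naphthalene in the lung and is also a liver gene, had a GR promoter region in both replicates without E2A. It also had a site inside the gene in every sample, with GR peaks of 354 and 1925 bp and E2A peaks of 304 and 328 bp in intron 3, the widest reaching exon 4. The inducible Cyp2b10 and the Cyp1 genes, targets of the receptors CAR and AHR, had no peak.

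The Cyp2c cluster on chromosome 19, whose enzymes oxidise drugs, arachidonic acid and bile acids, had peaks at 5 of 14 protein-coding genes. GR was called at 5 (35.7%, interval 16.3 to 61.2, against 23.4% of all protein-coding genes) and E2A at 3 (21.4%, interval 7.57 to 47.6, against 13.8%). The cluster held 1 and 8 GR peaks and 2 and 2 E2A peaks in the replicates, and no GR region was called in both. E2A was called in both replicates 26332 bp upstream of Cyp2c67. A related sequence 23254 bp upstream of Cyp2c69, identical over 215 of 223 bp (96.4%), had peaks in E2A replicate 2 and GR replicate 2. Cyp2c23, an arachidonic acid epoxygenase that lies apart from the cluster, had E2A in both replicates in exon 2 and no GR. Cyp2c29 and Cyp2c39 each had 1 GR peak in replicate 2. Outside the clusters, Cyp2u1 had 1 GR and 1 E2A peak in replicate 1 that did not overlap. In the Cyp2j cluster, Cyp2j5 had a shared promoter region from GR replicate 2 and E2A replicate 1, Cyp2j9 had 1 GR peak, and 6 protein-coding genes had none. GR was called at 2 of its 8 protein-coding genes (25%, interval 7.15 to 59.1) and E2A at 1 (12.5%, interval 2.24 to 47.1). These are near the shares of all protein-coding genes, 23.4% and 13.8%.

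Family 4 enzymes, the omega-hydroxylases of fatty acids and eicosanoids, had 9 members, and 11 of the 20 protein-coding genes had no peak. GR peaks were at 7 of the 20 and E2A peaks at 7, against 23.4% and 13.8% of all protein-coding genes. GR was called in both replicates at the promoters of Cyp4f13 and Cyp4f15 and 23389 bp upstream of Cyp4f18. The Cyp4f15 promoter was also called in E2A replicate 1. At Cyp4a32, GR replicate 2 had 4 peaks and E2A replicate 1 had 2, of which 1 pair overlapped, while the other replicates had none. Cyp4a10 and Cyp4a31 each had 1 E2A peak, in different replicates, at sequences that aligned with 88.7% identity. Cyp4v3 and Cyp4f17 each had 1 GR promoter peak in replicate 2 and 1 E2A peak in replicate 1 elsewhere, the latter, for Cyp4f17, in an exon of Cyp4f39. Cyp4a12a had 2 GR peaks in replicate 2. No E2A region of this family was called in both replicates.

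Of the 7 bile acid genes listed, 6 had GR peaks, 2 of them with a region in both replicates. E2A peaks were at 4, a shared region was at 3, and Cyp46a1, the brain cholesterol hydroxylase, had no peak. Over all protein-coding genes the shares were 23.4% with GR, 8.33% with GR in both replicates, 13.8% with E2A and 8.78% with a shared region. Cyp7a1, the rate-limiting enzyme of the classic pathway, was marked by GR but not by E2A: replicate 1 gave 2 peaks and replicate 2 gave 5. Its promoter was called in both GR replicates, with 756 and 2195 bp. Cyp7b1, the oxysterol hydroxylase of the alternative pathway, had 0 and 7 GR peaks. The peaks of replicate 2 ran from 10944 bp upstream into intron 1, and the gene was among 40 of 5140 in that list with at least 7 peaks. Its E2A peak lay 51678 bp into the gene and met none of them.

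Cyp27a1, the mitochondrial sterol 27-hydroxylase, had 3 GR regions, each called in both replicates. The GR peaks measured 299 and 565 bp at the promoter, 855 and 781 bp at 7675 bp into intron 1 and 264 and 335 bp at 10490 bp, the site of the GRE. The E2A peak of replicate 1, 388 bp, met the middle region. Cyp8b1, the sterol 12-alpha-hydroxylase that sets the cholic acid share, had 3 and 1 GR peaks. Downstream of this gene, E2A replicate 1 met a GR replicate 1 peak, and the GR replicate 2 peak lay just beside that site without sharing a base. Cyp2c70, which makes muricholic acids in mice, had a promoter region from GR replicate 2 (2133 bp) and E2A replicate 1 (267 bp). Its other 3 GR peaks lay 33610 to 39437 bp upstream, in or next to Pdlim1. Cyp39a1, the 24-hydroxycholesterol hydroxylase, had 1 GR peak in intron 1.

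Of the 6 steroid hormone genes listed, Cyp17a1 and Cyp21a1 had GR peaks, E2A peaks and a shared region. Cyp11a1, Cyp11b1, Cyp11b2 and Cyp19a1 had no peak. Over all protein-coding genes the shares were 23.4% with GR, 13.8% with E2A and 8.78% with a shared region. Cyp17a1, the steroid 17-alpha-hydroxylase, had the narrowest site found in every sample. In intron 6 of 7 its GR peaks measured 370 and 343 bp and its E2A peaks 328 and 291 bp, all within 409 bp at chr19:46668201-46668609. The promoter had a peak in E2A replicate 1 only. At Cyp21a1, the steroid 21-hydroxylase, a site 4188 bp upstream was called in both GR replicates and E2A replicate 1. It was annotated to the 3′ UTR of a neighbouring transcript.

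Among retinoic acid hydroxylases, Cyp26a1 had a site 4578 bp from its start, beyond the gene, in both GR replicates and E2A replicate 1. Those peaks measured 283, 462 and 370 bp. Its promoter had a peak in GR replicate 2 only, and Cyp26b1 and Cyp26c1 had none. Thus 1 of the 3 genes listed had GR and E2A peaks, against 23.4% with GR and 13.8% with E2A over all protein-coding genes. Of the 3 vitamin D genes listed, the 25-hydroxylase Cyp2r1 had 1 GR promoter peak in replicate 2, and Cyp27b1 and Cyp24a1 had none. That was 1 of 3 with GR, beside the same 23.4%. Cyp51, the lanosterol demethylase of cholesterol synthesis, was the nearest gene by annotation to 2 GR peaks of replicate 1, which lay 50351 and 51207 bp from its start inside Akap9 and were 97.0% identical to each other.

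The genes that serve the P450 enzymes were listed apart, since their symbols fall outside the rule. All 6 electron donors had a GR peak, 2 of them with a region in both replicates, and 3 had a shared region. Over all protein-coding genes these shares were 23.4%, 8.33% and 8.78%. Por, the P450 oxidoreductase, had 4 and 7 GR peaks and 4 and 2 E2A peaks. Fdx1, the ferredoxin of mitochondrial P450s, had 1 and 1 GR peaks and 3 and 1 E2A peaks. All 7 other bile acid enzymes had a GR peak, 6 of them with a region in both replicates, and 4 had a shared region. Of the 8 receptors and partner factors, 7 had GR peaks, 5 of them with a region in both replicates, and 6 had a shared region. Nr1i2, the pregnane X receptor, had 7 and 6 GR peaks and 3 and 0 E2A peaks, while Nr1i3, the constitutive androstane receptor, had none. The P450 genes Tbxas1 and Ptgis, named for their products, had no peak.

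Sequence motifs were counted in the central 200 bp of regions up to 2000 bp wide, beside all such regions of the same ChIP. A GRE with up to 2 mismatches was in 6 of 86 GR windows at P450 genes (6.98%, interval 3.24 to 14.4), against 4.49% of all 8647. It was in 1 of 63 E2A windows (1.59%) against 1.24% of all. The E-box was in 54 of 86 GR windows (62.8%, interval 52.2 to 72.3) against 54.6%, and in 40 of 63 E2A windows (63.5%, interval 51.2 to 74.3) against 59.2%. Base composition differed, with a mean G+C content of 47.6% in GR windows at P450 genes and 58.0% in all GR windows. Outside promoters, the GRE was in 8.06% of P450 GR windows and 8.14% of all, and the E-box in 67.7% and 68.1%. Base composition still differed there, with a mean G+C content of 44.9% at P450 genes and 49.3% in all GR windows. In E2A windows outside promoters it was 42.6% and 48.6%.

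The forms of the E-box were counted outside promoters. CAGCTG was in 2 of 62 GR windows at P450 genes (3.23%, interval 0.889 to 11.02) and in 13.2% of all. In E2A windows outside promoters it was in 0 of 53 (Wilson upper limit 6.76%, and 5.66% as the share that 3 counts would give) and in 12.4% of all. CACGTG was in 7 of 62 GR windows (11.3%, interval 5.58 to 21.5) and 4.99% of all, and in 5 of 53 E2A windows (9.43%) and 4.40% of all. CAGGTG, read on both strands, was in 16.1% of those GR windows and 15.1% of all. In E2A windows outside promoters it was in 8 of 53 (15.1%) and 13.7% of all. These 3 forms are part of the E-box count. There were few promoter windows. CAGCTG was in 3 of 24 GR windows at P450 genes (12.5%) against 10.4% of all, and in 2 of 10 E2A windows (20%) against 10.6%. CACGTG was in 0 of 24 (upper limit 13.8%) against 6.06%, and in 0 of 10 (upper limit 27.8%) against 7.42%. CAGGTG was in 5 of 24 GR windows (20.8%, interval 9.2 to 40.5) against 11.4%. In E2A promoter windows it was in 4 of 10 (40%, interval 16.8 to 68.7) against 12.7%. The HNF4 letters CAAAGTCCA, with up to 1 mismatch, were in 17.7% of GR windows at P450 genes outside promoters and 15.7% of all. The C/EBP letters TTGCGCAA, with up to 1 mismatch, were in 6.45% and 8.52%. In E2A windows outside promoters the HNF4 letters were in 15.1% at P450 genes and 16.3% of all, and the C/EBP letters in 15.1% (8 of 53, interval 7.85 to 27.1) and 10.6%. Duplicated regions enter these counts more than 1 time, and a match of letters is not a measured binding site.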

How the data were processed

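GR and E2A ChIP-seq peak lists from 4 mouse liver samples were used, 2 biological replicates per ChIP. Per the labels and the study's methods, reads were mapped by the authors with BWA 0.7.13 (genome build mm10). They removed duplicates with Picard 1.119 and kept uniquely mapped read pairs with samtools. They then downsampled to 18000000 (GR) or 22000000 (E2A) read pairs and called peaks with MACS2 2.1.0. The paper names other releases of Picard and MACS2. The control, threshold and annotation tool are not given in the sources used here. The deposited tables give each peak's position, width, annotated feature and distance to the nearest gene's start. The deposited score column was 0 in every row and was not used. Replicate numbers follow the labels; the file names of the GR lists carry the opposite numbers. The lists give no read count per peak.

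Peaks were selected by gene symbol, and the members, gene lists and comparisons were chosen with earlier results of these data known. Peaks of 1 ChIP sharing at least 1 bp were merged into a region, and GR and E2A regions sharing at least 1 bp counted as shared. A region was a promoter region if any of its peaks was annotated so. Gene clusters were P450 genes with gaps of at most 500 kb. Groups of the same chromosome and subfamily were counted as 1 cluster, which joined Cyp3a13 to the other Cyp3a genes. All members are counted by family or cluster. Regions are described for genes with a region in both replicates of a ChIP or a shared region, and some others by their role. Shares carry 95% Wilson intervals for counting error only, beside the same share over all regions or genes. No significance test was run. Sequences came from RefSeq GRCm38.p6 and gene models from GENCODE M21, while distances and nearest genes are those of the deposited annotation. Pairs of sites up to 1.5 Mb apart were aligned locally (match 2, mismatch -3, gap opening -5, gap extension -2) and kept from 150 aligned bp. Merging and motif functions were tested on simulated data. Python 3 with pandas, pysam and Biopython was used.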

Additional observations from a re-analysis of the deposited data

How the results depend on the processing

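No paired analysis was possible because every result is a count or share with no test, and no source used here says which GR and E2A lists share a liver. Requiring an overlap of 50% of the shorter region left all shared counts as they were. Placing centres within 250 bp gave 28.8% of E2A regions meeting GR, and regions of at most 2000 bp gave 33.3%. With both replicates required, 16.7% of GR regions met E2A, and 21 genes had a GR region, 10 an E2A region and 5 a shared region. With up to 1 mismatch, the GRE was in 2.33% of GR windows. Without Cyp3a11 and Cyp3a25, chosen after seeing the data, 59.1% of E2A regions met GR. Leaving out 1 list at a time gave 8.79% to 42.9% of GR regions meeting E2A, 31.8% to 55% of E2A regions meeting GR, 29 to 36 genes with GR, 14 to 29 with E2A, 8 to 20 with a shared region and a GRE in 5.88% to 8.33% of GR windows. The lowest values for GR regions meeting E2A, genes with E2A and genes with a shared region all came without E2A replicate 1. The remaining alternatives stayed within 1.5 times the reported count or inside its interval. Without peak heights or read counts, no call could be weighed by depth.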
